A study of Mus musculus with 18 samples.

Results

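The genes described here are 32 genes of the lysosome, taken by symbol from the deposited expected count table of 21954 genes. They encode acid hydrolases, the activator proteins that hydrolases need, lipid transfer proteins and proteins of the lysosomal membrane. Cathepsins were left out of the list and are given at the end as a related group. The choice by symbol used no measured value, and all 32 genes passed the filter on low counts. RNA was measured by sequencing in bone marrow derived macrophages, which are macrophages grown in culture from mouse bone marrow cells. The cells were either wild type (called Control in the sample titles) or carried a macrophage-specific knockout of L13a, a protein of the large ribosomal subunit encoded by Rpl13a. Both genotypes were studied without treatment, with IFN and with IL4, which gives 6 groups of 3 libraries. The titles number the untreated libraries 1 to 3, the IFN libraries 4 to 6 and the IL4 libraries 7 to 9 in both genotypes. The labels name neither the type of interferon, the dose and time of treatment, the driver of the knockout, nor the age and strain of the animals. Whether replicate libraries stem from different animals or cultures is not stated, so the p-values measure only the spread between these libraries, which may be technical. In wild type groups this can hold only in part, as the Y-linked transcripts given below differ between libraries.

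Lysosomes are acidic organelles in which hydrolases break down proteins, lipids, glycans and nucleic acids that arrive by endocytosis, phagocytosis and autophagy. Most soluble hydrolases are tagged with mannose 6-phosphate in the Golgi and sorted to the lysosome by receptors that recognise this tag. Sphingolipids are taken apart in sequence, and several of the enzymes act only together with small activator proteins, the saposins cut from prosaposin (Psap) and the GM2 activator (Gm2a). The transcription factors TFEB, TFE3 and MITF bind an E-box named the CLEAR element near many lysosomal genes. Loss of single hydrolases causes lysosomal storage diseases, and macrophages, which degrade large amounts of engulfed material, are among the cells that show storage.

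The libraries held 18098711 to 28477342 expected counts each. The 32 genes lie on 15 chromosomes, and 7 of them overlap a coding gene on the opposite strand (GENCODE vM21, GRCm38), among them Ppt1, Grn, Sgsh and Lamp1, while the protocol names both a directional and a non-directional option for the second strand without saying which was used. Another of the genes, Glb1, overlaps the coding gene Tmppe on the same strand. Reads of overlapping genes may therefore be shared between them. Rpl13a was lower in the knockout libraries as a mean over the 3 treatments (log2 fold change -1.11 ± 0.22 SE, adjusted p = 0.0460), but it did not pass the test in any single treatment, and knockout libraries 3, 6 and 9 were the highest for it in their groups, at 401, 425 and 606 CPM (counts scaled to library size with TMM factors). Knockout library 9 thereby lay within the range of the IL4-treated wild type libraries, 598 to 867 CPM. The transcript of Lyz2, lysozyme of macrophages, was at 0.682 to 7.12 CPM in the knockout libraries and at 2881 to 12110 CPM in the wild type libraries, so effects of losing L13a and of losing Lyz2 cannot be told apart. Of 10 macrophage markers, the 9 other than Lyz2 were present in every group and summed to 6267 to 10420 CPM. Y-linked markers summed to 134 to 191 CPM in 5 of 9 libraries of wild type cells and to 1.19 to 3.19 CPM in the other 4 and in the knockout. Each wild type group held libraries of both kinds, so its libraries do not all stem from the same animal. No knockout library held the higher level, so genotype and sex cannot be fully told apart. In untreated wild type cells libraries 2 and 3 were unusually alike. Their chi-square over genes, divided by its degrees of freedom, was 5.92, against 49.1 to 175 in the other 17 pairs of replicates. This still exceeded sampling noise, and both were kept. It cannot tell repeated preparations of the same RNA from separate cultures. Tests that use untreated wild type cells may therefore rest on fewer independent samples than libraries. In bulk RNA, fewer cells of a type and less RNA per cell cannot be told apart.

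The promoter sequences below are shown because the list holds many copies of the E-box core, and because the genes with this core were compared with the genes that moved with cytokine. RefSeq sequence of GRCm38.p6, from 250 bases before to 50 bases after the start, matched 29 of the 32 genes, with Npc1, Asah1 and Aga unmatched. The palindrome CACGTG was found in 8 of these 29 (27.6%), against 8.09% of the 27025 genes with a promoter in the same table. A gene counted once, however many starts it has. The 8 genes were Arsa, Gaa, Gla, Glb1, Lamp1, Mcoln1, Naglu and Sgsh. The longer palindrome TCACGTGA, which contains CACGTG, was found in 2 (6.9% against 1.12%). The pattern TTCNNNGAA, the letters of the interferon-gamma activated site, was found in 2 (6.9% against 9.55%). The STAT6 pattern, TTC and GAA with 4 free bases between them, was found in 1 (3.4% against 8.01%), and the interferon-stimulated pattern, GAAA and GAAA with 2 free bases between them, in 1 (3.4% against 3.99%). All motifs were searched on both strands, and a match is a description of the letters, not a binding site. In the Lamp1 promoter (chr8:13159061-13159160, plus strand), the Mcoln1 promoter (chr8:3500419-3500456, plus strand) and the Glb1 promoter (chr9:114401018-114401075, plus strand), capitals mark CACGTG.
Lamp1: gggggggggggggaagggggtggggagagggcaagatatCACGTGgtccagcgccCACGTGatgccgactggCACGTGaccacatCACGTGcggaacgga
Mcoln1: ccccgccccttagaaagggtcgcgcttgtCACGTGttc
Glb1: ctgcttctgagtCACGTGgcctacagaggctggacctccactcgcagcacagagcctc
Lamp1, which encodes a heavily glycosylated protein of the lysosomal membrane, held 4 copies of the palindrome, the most of the 29, and is returned to below as a gene that passed no test. The Gm2a promoter (chr11:55097885-55097944, plus strand) is shown as the promoter of the list with both TTC patterns, and capitals mark TTCNNNGAA first and the STAT6 pattern second.
Gm2a: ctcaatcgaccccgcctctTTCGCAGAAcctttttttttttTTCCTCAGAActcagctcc
The Ppt1 promoter (chr4:122836077-122836226, plus strand) belongs to the gene with the largest rise, and none of the motifs searched was found in its 300-base window, so it has no capitals.
Ppt1: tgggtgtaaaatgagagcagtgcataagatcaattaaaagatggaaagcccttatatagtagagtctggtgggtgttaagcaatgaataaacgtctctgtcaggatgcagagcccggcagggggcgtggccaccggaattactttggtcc

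The 32 genes covered a wide range of levels. Compared per length in TPM (the deposited transcript abundances), Psap was highest, with a median of 6702 TPM over the 18 libraries, and Arsa, the sulfatase of sulfatide, was lowest with 24.8 TPM. After Psap came Grn (granulin precursor, 2288 TPM), Cd63 (a tetraspanin of late endosomes, 1644 TPM), Lamp1 (1472 TPM) and Lipa (acid lipase, 1149 TPM). The ranges of Cd63, 1037 to 2264 TPM, and Lamp1, 1156 to 2078 TPM, overlapped over most of their length, so these neighbours in the order did not separate. The list as a whole made up 15270 ± 3220 TPM (SD, n = 3) in untreated wild type cells, 19800 ± 1810 with IFN and 18220 ± 2720 with IL4. In the knockout these sums were 17920 ± 4330, 20610 ± 2220 and 20380 ± 5010 TPM. Much of the higher sums under cytokine lay in 1 gene. Psap made up 24.6% ± 6.29 of the summed TPM in untreated wild type cells, 37.0% ± 2.16 with IFN and 40.2% ± 0.657 with IL4, and 27.0% ± 6.54, 35.4% ± 1.91 and 40.2% ± 4.81 in the knockout. Without Psap the sum was 11370 ± 1350, 12470 ± 1030 and 10890 ± 1520 TPM in wild type cells and 12900 ± 2090, 13320 ± 1500 and 12040 ± 1960 TPM in the knockout, and the ranges of the groups overlapped.

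**Figure D1:**
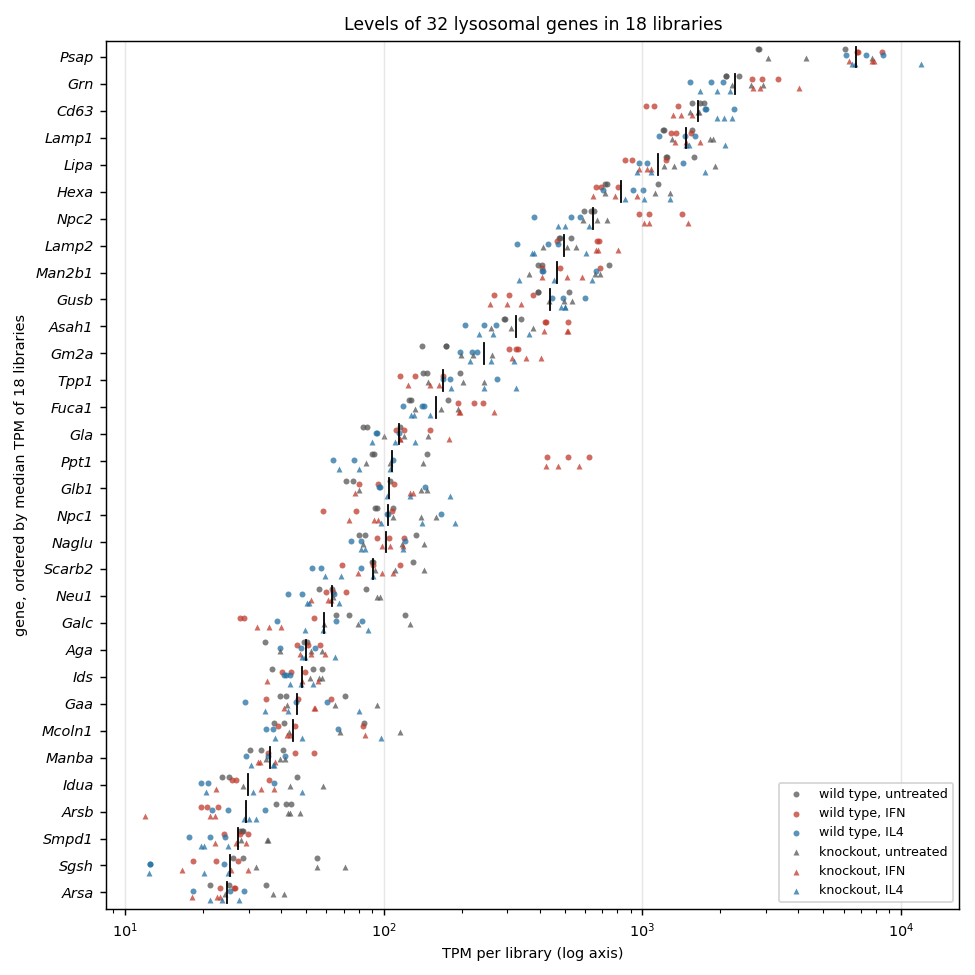
TPM on a log axis of the 32 genes in each of the 18 libraries, with circles for wild type, triangles for knockout, colours for treatment and a black bar at the median of all libraries. Psap lies highest with a median of 6702 TPM, and the IFN libraries of Ppt1 stand apart from all its other libraries.

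Libraries of 1 group deviated together for these genes. Wild type untreated library 1 held the highest CPM of its group for 24 of the 32 genes and knockout untreated library 1 for 22, and 19 genes were highest in both. Among all genes tested, 43.7% and 38.5% were highest in these libraries. The share highest in both was not taken over all genes. Knockout libraries 3, 6 and 9 held the lowest CPM of their groups for 28, 24 and 30 of the 32 genes, where the share among all 12514 genes tested was 38.9%, 33.5% and 38.5%. In wild type cells, IFN library 5 and IL4 library 8 were lowest for 22 and 20 of the 32, beside 29.7% and 32.8% of all genes. Both were the middle library of their group for Rpl13a. Knockout libraries 3, 6 and 9 had the most Rpl13a of their groups. They also held the most fibroblast and stromal markers of their groups, 406, 808 and 1107 summed CPM of 14 markers, with Lum under 0.5 CPM in every group. Markers of dividing cells were also highest there, at 839, 594 and 819 summed CPM of 6 markers against 184 to 567 in the other knockout libraries. The part of any of these in the levels was not tested. Psap varied most among untreated libraries, with a coefficient of variation of 41.3% in wild type and 43.8% in knockout cells, where the medians over the 32 genes were 15.4% and 16.0%.

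IFN changed a minority of the list, and in the edgeR test, though not in the knockout on the TPM scale, most of the changed genes rose. In wild type cells 9 of 32 genes passed the test (28.1%), 7 higher and 2 lower, where 18.6% of all genes tested were called, 11.1% higher and 7.55% lower. In the knockout 10 of 32 passed (31.2%), 8 higher and 2 lower, beside 21.6% of all genes, 12.6% higher and 8.93% lower. On the TPM scale, which was not rescaled for composition, limma called 5 higher and 3 lower in wild type cells, beside 16.8% of all genes, and 4 higher and 5 lower in the knockout, beside 32.2%. The genes called in both genotypes were Ppt1, Gm2a, Fuca1, Npc2, Asah1 and Psap, which rose, and Arsb and Galc, which fell. Manba was called in wild type cells alone and Lamp2 and Grn in the knockout alone, and no difference between the genotypes' responses passed its own test. IFN and untreated libraries did not overlap for 37.3% of all genes in wild type and 34.4% in knockout cells. Each lack of overlap with IFN given below stands beside these shares. The median log2 fold change of the list was 0.09 in wild type and 0.16 in knockout cells, beside -0.02 and -0.03 for all genes. Without IFN library 4 the wild type median was -0.02. With limma on log2(TPM + 1) the median of the list was 0.01 in wild type cells and turned to -0.22 in the knockout, where that scale moved the median of all genes to -0.31. Dendritic cell markers summed to 10.1 to 12.3 CPM over 9 markers in untreated wild type cells and 48.0 to 129 CPM with IFN. In the knockout they summed to 15.4 to 22.2 CPM untreated and 53.5 to 111 CPM with IFN. Of the 9 markers, 6 were under 0.5 CPM in untreated wild type cells and 6 with IFN. In the knockout 5 were under it untreated and 2 with IFN. Flt3 and Itgae were under it in each of these groups. The part of the dendritic cell markers in the changes was not tested.

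**Figure D2:**
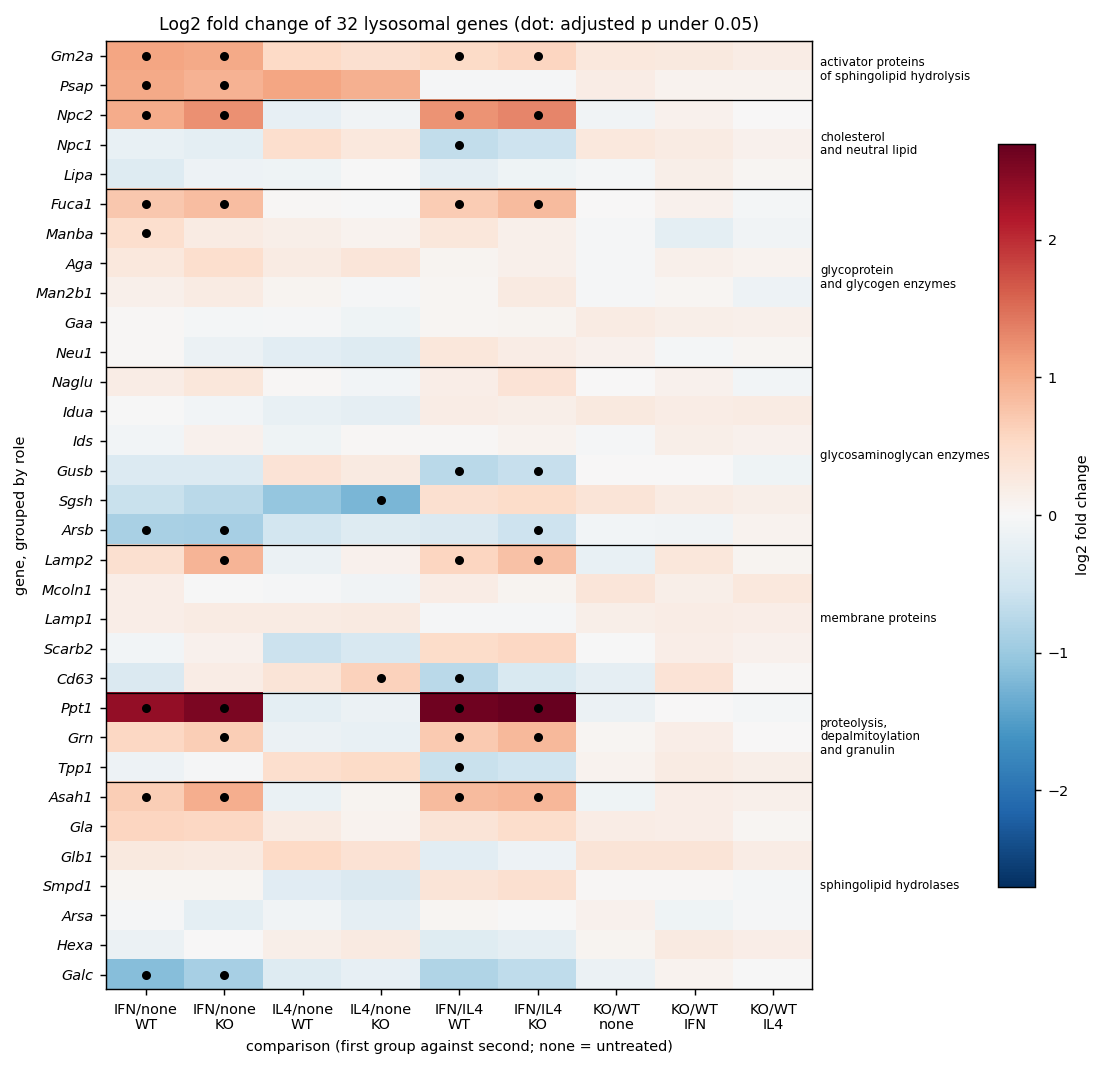
Log2 fold change of the 32 genes, in rows grouped by role, in 9 comparisons, with red for higher in the first group named and a black dot for an adjusted p under 0.05. Ppt1 is the darkest red in both genotypes for IFN against untreated and for IFN against IL4, and the 3 columns of knockout against wild type hold no dot.

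Among the genes of proteolysis and depalmitoylation, Ppt1 (chr4:122836242-122859175) moved most. It encodes palmitoyl-protein thioesterase, which removes fatty acids from proteins and is lost in the infantile form of neuronal ceroid lipofuscinosis. In untreated wild type cells Ppt1 was at 179, 124 and 122 CPM, with IFN at 796, 582 and 815 CPM, and with IL4 at 142, 116 and 94.1 CPM. Knockout cells held 158, 120 and 103 CPM untreated, 869, 635 and 699 CPM with IFN, and 137, 115 and 89.0 CPM with IL4. Every IFN library lay above every other library of its genotype by a wide margin. The rise against untreated cells was 2.37 ± 0.24 on the log2 scale in wild type (SE, adjusted p = 3.185e-06) and 2.53 ± 0.24 in knockout cells (adjusted p = 1.278e-06), and it kept its call in each of the alternatives run. Ppt1 overlaps the gene Cap1 on the opposite strand (GENCODE vM21). Cap1 itself was at 1080 ± 29.3 CPM untreated and 1280 ± 94.9 CPM with IFN in wild type cells, a change that did not pass the test (log2 fold change 0.25, adjusted p = 0.219). In the knockout this change was 0.11 (adjusted p = 0.608). Against IL4, Cap1 was higher with IFN in wild type (0.60, adjusted p = 0.00336) and knockout cells (0.69, adjusted p = 0.00113). With IL4 it was lower than untreated in the knockout (-0.58, adjusted p = 0.0115) but not called in wild type cells (-0.35, adjusted p = 0.125). The part of Cap1 in the Ppt1 values was not tested.

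Grn, whose protein is cut into granulins and supports lysosomal function, stood at 2804, 2769 and 2802 CPM in untreated wild type cells and at 3622, 3501 and 5127 CPM with IFN. This difference of 0.55 ± 0.19 log2 did not pass the test (adjusted p = 0.0569). The libraries did not overlap, as for 37.3% of all genes. In the knockout Grn rose from 2844, 3264 and 2631 CPM to 3944, 5872 and 4090 CPM (0.67 ± 0.19, adjusted p = 0.0191). Without knockout library 5, which was the highest, the adjusted p was 0.115, and without untreated libraries 1 or 3 it was 0.0575 and 0.0722. The call was also lost in a fit of the groups compared alone (0.0910), without knockout libraries 3, 6 and 9 (0.0754) and on the TPM scale, where the rise was 0.28 (limma, adjusted p = 0.234). Tpp1, the lysosomal tripeptidyl peptidase, was at 313 ± 31.8 CPM untreated and 284 ± 29.1 with IFN in wild type cells and did not pass the test in either genotype.

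Both sphingolipid activator genes rose with IFN. Gm2a (chr11:55098115-55113029), which presents the ganglioside GM2 to hexosaminidase A, was at 312, 426 and 427 CPM in untreated wild type cells and at 761, 797 and 866 CPM with IFN. Knockout cells went from 444, 541 and 436 CPM to 972, 1095 and 829 CPM. The groups did not overlap in either genotype, and the changes of 1.06 ± 0.18 (adjusted p = 0.000506) and 1.03 ± 0.18 (adjusted p = 0.000569) were called in each of the alternatives run. Psap (chr10:60277627-60302597), the precursor of saposins A to D, was at 8348, 4301 and 4303 CPM in untreated wild type cells and at 12170, 10420 and 11990 CPM with IFN. The rise was 1.03 ± 0.32 (adjusted p = 0.0337) in wild type and 0.93 ± 0.32 (adjusted p = 0.0485) in knockout cells, where untreated libraries were at 9633, 5506 and 4218 CPM and IFN libraries at 13370, 13070 and 10430 CPM. These 2 calls were fragile. In wild type cells the adjusted p rose to between 0.0530 and 0.129 without any 1 of untreated libraries 2 and 3 or IFN libraries 4, 5 and 6, and in the knockout to between 0.0608 and 0.179 without any 1 of libraries 2 to 6. On the TPM scale both missed the threshold (limma, adjusted p = 0.0553 and 0.164).

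**Figure D3:**
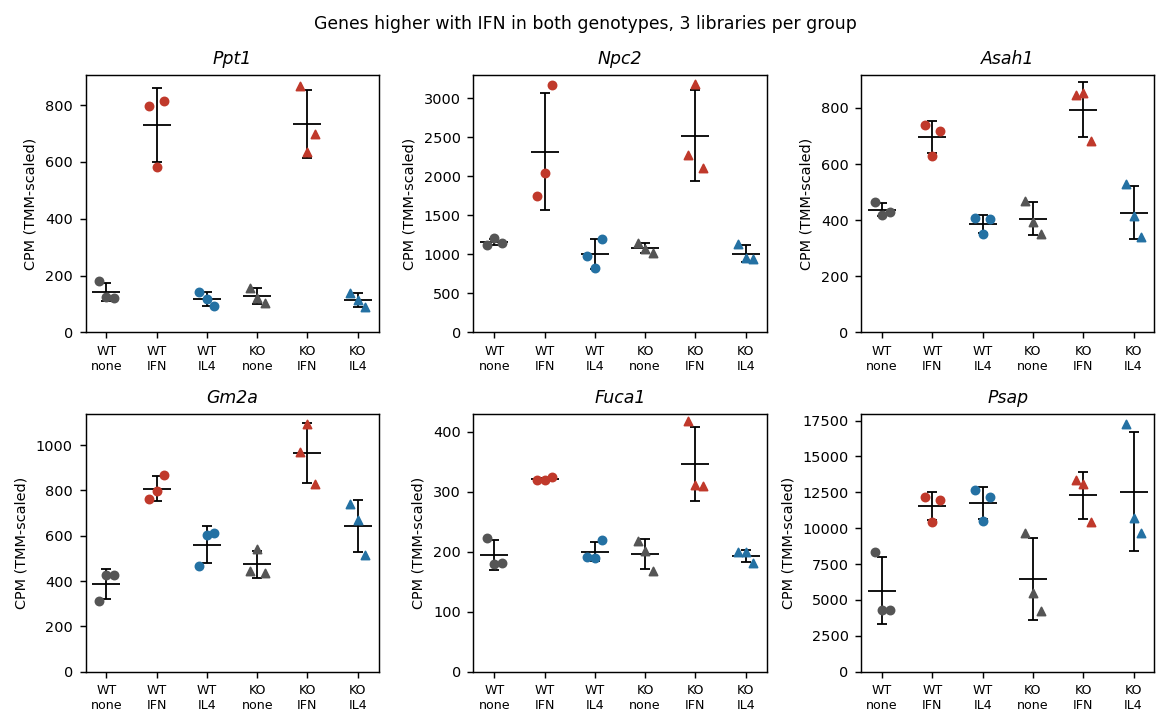
CPM of 6 genes higher with IFN in both genotypes, with 1 point per library, circles for wild type (WT), triangles for knockout (KO), "none" for untreated, and black bars for mean ± SD of 3 libraries. All 3 IFN libraries of each genotype lie above all 3 untreated libraries in every panel. For Psap the IL4 libraries also lie above the untreated ones, in the knockout only just (9641 against 9633 CPM).

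The 3 genes of cholesterol and neutral lipid handling went different ways. Lipa frees cholesterol from its esters, and NPC2 and NPC1 then pass it across the lysosomal membrane. Npc2 (chr12:84754562-84773152) was at 1125, 1204 and 1142 CPM in untreated wild type cells and at 1747, 2036 and 3164 CPM with IFN, a rise of 1.00 ± 0.22 (adjusted p = 0.00373). Knockout cells showed a rise from 1144, 1074 and 1014 CPM to 2267, 3183 and 2101 CPM (1.22 ± 0.22, adjusted p = 0.000726). Untreated libraries agreed closely and IFN libraries were spread, but no IFN library fell within the untreated range. Its partner Npc1 was at 296 ± 8.72 CPM untreated and 258 ± 53.7 with IFN in wild type cells (-0.20, adjusted p = 0.586), and at 360 ± 51.8 and 298 ± 43.7 in the knockout (-0.27, adjusted p = 0.435). Lipa was at 2260 ± 192 CPM untreated and 1770 ± 221 CPM with IFN in wild type cells and passed no test.

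Of the 7 sphingolipid hydrolases, 1 rose and 1 fell with IFN in both genotypes. Asah1 (chr8:41340197-41374773), acid ceramidase, was at 464, 417 and 430 CPM in untreated wild type cells and at 740, 630 and 719 CPM with IFN (0.67 ± 0.16, adjusted p = 0.00830). In the knockout it rose from 468, 395 and 352 CPM to 846, 854 and 681 CPM (0.97 ± 0.16, adjusted p = 0.000480). The groups were separate in both genotypes. Galc (chr12:98202294-98259459), which removes galactose from galactosylceramide, was 187 ± 52.6 CPM in untreated wild type cells and 84.0 ± 26.4 with IFN, and 168 ± 58.3 and 90.3 ± 11.2 in the knockout. It fell by 1.15 ± 0.30 on the log2 scale (adjusted p = 0.0137) and by 0.89 ± 0.30 (adjusted p = 0.0457), and the libraries did not overlap. The wild type call was lost without untreated library 1 or IFN libraries 5 or 6 (adjusted p of at most 0.0665), and the knockout call without 5 of its 6 libraries (at most 0.191 without untreated library 1). Hexa, Gla, Glb1, Arsa and Smpd1 passed no test in any comparison with IFN, with Gla nearest in wild type cells at 0.57 ± 0.21 (adjusted p = 0.0709).

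Among the 6 enzymes of glycoproteins and glycogen, Fuca1 changed in both genotypes. Fuca1 (chr4:135920735-135940311) removes fucose from glycans, and its libraries were at 223, 179 and 182 CPM untreated and at 320.0, 319 and 324 CPM with IFN in wild type cells. In the knockout they were at 218, 202 and 168 CPM untreated and at 417, 312 and 310 CPM with IFN. No libraries overlapped, and the rises were 0.72 ± 0.14 (adjusted p = 0.00176) and 0.82 ± 0.14 (adjusted p = 0.000540). On the log2(TPM + 1) scale the knockout rise missed the threshold (limma, adjusted p = 0.0752). Manba, the lysosomal beta-mannosidase, rose in wild type cells from 72.3 ± 7.56 to 98.8 ± 9.83 CPM (0.45 ± 0.12, adjusted p = 0.0141), and in the knockout was at 70.4 ± 3.58 and 82.4 ± 7.78 CPM (0.23, adjusted p = 0.207). The wild type call was lost without untreated library 3 or IFN library 4 (adjusted p 0.0796 and 0.0836), in a fit of the groups compared alone (0.0637) and on the TPM scale (limma, 0.184). Man2b1, Neu1, Aga and Gaa, which trim mannose, sialic acid, asparagine-linked glycans and glycogen, passed no test.

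The 6 glycosaminoglycan enzymes held 1 fall with IFN that both genotypes shared. Arsb (chr13:93771630-93943016) removes sulfate from dermatan and chondroitin sulfate. It was at 81.4, 103 and 99.2 CPM in untreated wild type cells and at 51.0, 46.6 and 56.9 CPM with IFN, and in the knockout at 82.6, 86.5 and 101 CPM and at 31.6, 55.8 and 57.2 CPM. All IFN libraries lay below all untreated libraries, and Arsb fell by 0.88 ± 0.19 (adjusted p = 0.00453) and by 0.90 ± 0.20 (adjusted p = 0.00330). These calls held in each of the alternatives run. Gusb, Sgsh, Idua, Ids and Naglu passed no test of IFN against untreated cells.

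Of the 5 membrane proteins, Lamp2 passed the test with IFN, in the knockout. Lamp2 (chrX:38401357-38456454) protects the lysosomal membrane and takes part in autophagy. Its libraries were at 631, 614 and 538 CPM untreated and at 1038, 1282 and 1037 CPM with IFN in knockout cells (0.91 ± 0.18, adjusted p = 0.00205). In wild type cells they were at 669, 679 and 692 CPM untreated and at 914, 698 and 1121 CPM with IFN. The wild type libraries were also all higher with IFN, but library 5 exceeded the highest untreated library by little and no call was made. The difference between the 2 responses was 0.49 ± 0.26 (adjusted p = 1.0). On the TPM scale the knockout rise missed the threshold (limma, adjusted p = 0.0564). Lamp1, Scarb2 (the receptor that carries glucocerebrosidase to the lysosome), Mcoln1 (a lysosomal cation channel) and Cd63 passed no test of IFN against untreated cells.

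IL4 changed few genes of the list. Among wild type libraries 0 of 32 genes passed the edgeR test, beside 8.49% of all genes, although 8 of the 32 had an unadjusted p under 0.05 and DESeq2 called 5, beside 11.3% of all genes. In the knockout 2 of 32 passed (6.25%), 1 higher and 1 lower, beside 9.48% of all genes, 5.35% higher and 4.12% lower, and limma on the TPM scale called 0 higher and 2 lower, beside 10.4% of all genes. The medians of the list were -0.03 and -0.02, beside -0.01 and 0.01 for all genes, and each turned above 0 without untreated library 1 (0.15 and 0.12). IL4 and untreated libraries did not overlap for 28.5% of all genes in wild type and 22% in knockout cells. Each lack of overlap with IL4 given below stands beside these shares. Psap had the lowest p in wild type cells. It ran from 10470 to 12630 CPM with IL4 against 4301 to 8348 untreated, without overlap, and the difference of 1.06 ± 0.32 missed the threshold (adjusted p = 0.0524). Without untreated library 1, the highest of its group, the adjusted p was 0.0129. In the knockout Psap was at 12500 ± 4130 CPM with IL4 and 6450 ± 2830 untreated (0.96 ± 0.32, adjusted p = 0.0731). Its lowest IL4 library there, at 9641 CPM, lay only just above the highest untreated library, at 9633 CPM. Osteoclast markers summed to 291 to 338 CPM over 10 markers in untreated wild type cells and 982 to 1154 CPM with IL4. In the knockout they summed to 277 to 387 CPM and 865 to 1485 CPM, with Calcr and Oscar under 0.5 CPM in every group. Fibroblast and stromal markers summed to 881 to 891 CPM untreated, 249 to 580 CPM with IL4 and 111 to 193 CPM with IFN in wild type cells, and to 109 to 406, 183 to 1107 and 39.6 to 808 CPM in the knockout, where the ranges overlapped. The part of either in the changes was not tested.

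Sgsh (chr11:119343425-119355536), the sulfamidase that acts on heparan sulfate, had the largest fall with IL4. It was at 151, 120 and 74.9 CPM in untreated knockout cells and at 61.2, 55.1 and 31.2 CPM with IL4, and fell by 1.22 ± 0.33 (adjusted p = 0.0286). In wild type cells it was at 129, 73.9 and 67.6 CPM and at 60.6, 36.1 and 35.2 CPM (-1.04 ± 0.33, adjusted p = 0.0678). The groups did not overlap in either genotype, and library 1 was the highest untreated library in both. The knockout call was lost without untreated libraries 1 or 2 or IL4 libraries 8 or 9 and in a fit of the groups compared alone (adjusted p from 0.0552 to 0.109). Cd63 rose with IL4 in the knockout from 603, 623 and 612 CPM to 829, 1078 and 904 CPM (0.61 ± 0.18, adjusted p = 0.0438). In wild type cells it was at 629, 772 and 761 CPM untreated and at 771, 883 and 1103 CPM with IL4, where the ranges touched. The knockout call of Cd63 was lost in 10 of 15 alternatives, with adjusted p up to 0.186.

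The direct comparison of IFN with IL4 called 11 of 32 genes in wild type cells (34.4%), 7 higher and 4 lower with IFN, beside 21.1% of all genes, 11.8% higher and 9.28% lower. Among knockout libraries it called 9 of 32 (28.1%), 7 higher and 2 lower, beside 22.2% of all genes, 12.4% higher and 9.87% lower. On the TPM scale the splits were 6 higher and 2 lower, beside 18.6% of all genes, and 6 higher and 4 lower, beside 22.5%. These comparisons use the same IFN and IL4 libraries as the comparisons with untreated cells. Ppt1 was higher with IFN by 2.64 ± 0.24 in wild type and 2.69 ± 0.24 in knockout cells, Npc2 by 1.21 ± 0.22 and 1.32 ± 0.22, Asah1 by 0.85 ± 0.16 and 0.89 ± 0.16, and Fuca1 by 0.68 ± 0.14 and 0.84 ± 0.14. Grn was higher by 0.70 ± 0.19 (adjusted p = 0.0140) and 0.87 ± 0.19 (adjusted p = 0.00336), from 2636, 2255 and 2640 CPM with IL4 in wild type and 2726, 2729 and 2170 CPM in knockout cells. Lamp2 was higher by 0.57 ± 0.18 and 0.79 ± 0.18, and Gm2a by 0.53 ± 0.18 and 0.59 ± 0.18. Psap had a higher mean than untreated under both cytokines, though with IL4 it was not called in the main test. It differed between the cytokines by -0.03 in each genotype (adjusted p = 0.970 and 0.967).

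Gusb, Cd63, Tpp1, Npc1 and Arsb were lower with IFN than with IL4 in at least 1 genotype. Gusb, beta-glucuronidase, was at 870, 813 and 726 CPM with IL4 and at 534, 455 and 459 CPM with IFN in wild type cells, between which the untreated libraries lay at 699, 585 and 588 CPM. In the knockout it was at 721, 801 and 717 CPM with IL4, 561, 421 and 482 CPM with IFN and 663, 635 and 585 CPM untreated. Gusb was lower with IFN (log2 difference -0.73 ± 0.14, adjusted p = 0.000862, and -0.61 ± 0.14, adjusted p = 0.00347), while neither cytokine passed the test against untreated cells. Cd63 was at 474, 464 and 717 CPM with IFN in wild type cells and lower than with IL4 (-0.74 ± 0.18, adjusted p = 0.00719). In the knockout its IFN libraries were at 662, 771 and 691 CPM, and the difference from IL4 was not called. Tpp1 (-0.60 ± 0.19, adjusted p = 0.0325) and Npc1 (-0.66 ± 0.22, adjusted p = 0.0428) were lower with IFN in wild type cells, with knockout differences of -0.53 (adjusted p = 0.0534) and -0.56 (adjusted p = 0.0792). Arsb was lower in the knockout (-0.56 ± 0.20, adjusted p = 0.0498). The count of 11 in wild type cells went to 6 without IFN library 6 and to 7 without IL4 library 7 or 8. For wild type cells the calls of Gm2a and Lamp2 were lost in 8 of 14 alternatives, that of Npc1 in 7, that of Tpp1 in 6, that of Grn in 2 (without IFN library 6 or IL4 library 8, adjusted p 0.0858 and 0.0588) and that of Cd63 in 1, and in the knockout that of Gm2a in 8 of 15, that of Arsb in 6 and that of Gusb in 1.

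**Figure D4:**
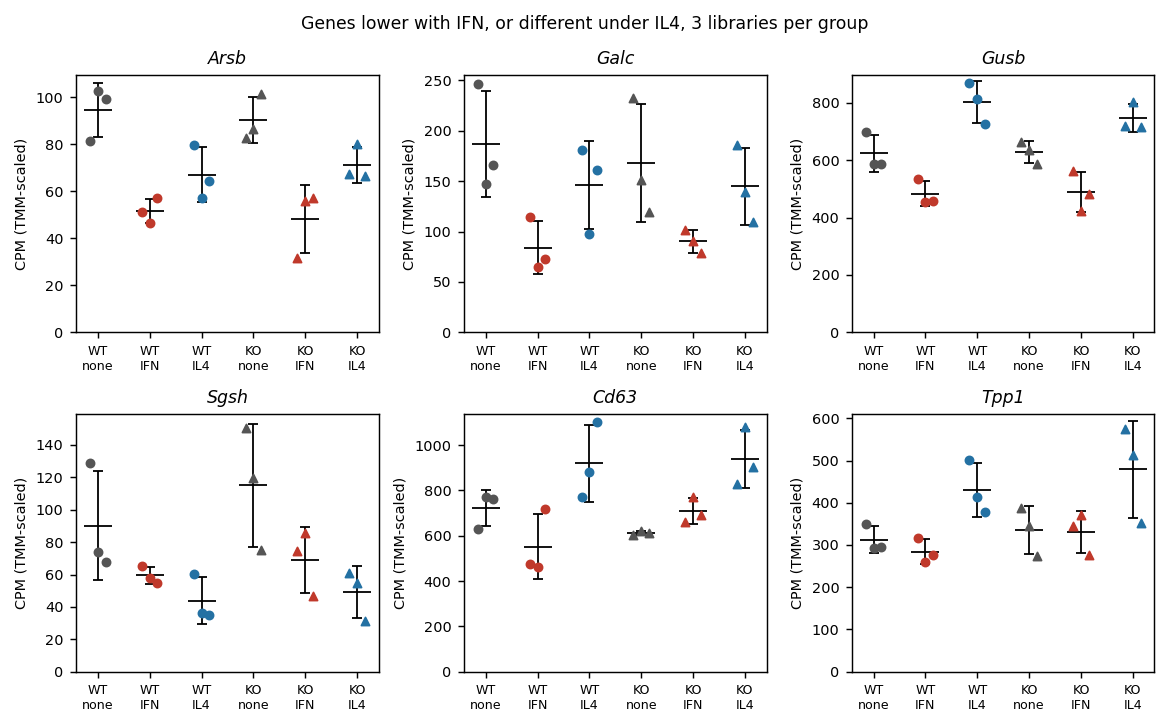
CPM of 6 genes that were lower with IFN or differed under IL4, with 1 point per library, circles for wild type (WT), triangles for knockout (KO), "none" for untreated, and black bars for mean ± SD of 3 libraries. Arsb and Galc lie lower with IFN than untreated in both genotypes, Gusb lies highest with IL4 and lowest with IFN, and the mean of Sgsh is lowest with IL4.

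None of the 32 genes passed the test of knockout against wild type cells in any treatment. The edgeR test called 0 of 32 in untreated cells, beside 0.0799% of all genes, 0 of 32 with IFN (0.0639%) and 0 of 32 with IL4 (0.0639%), and 0 of 32 in the mean over the 3 treatments (0.392%). The numbers of the 32 with an unadjusted p under 0.05 were 0, 1, 0 and 2, and DESeq2 and limma each called 0 in these comparisons, beside 1.61% and 0.368% of all genes in the mean over treatments. The background was so low that 0 of 32 does not set the list apart. Log2 fold changes ran from -0.23 to 0.35 in untreated cells, from -0.26 to 0.36 with IFN and from -0.14 to 0.28 with IL4. More genes lay above 0 than below it, 19, 28 and 23 of 32, with medians of 0.02, 0.16 and 0.08 beside 0.01, 0.02 and 0.0044 for all genes. The median in untreated cells was -0.02 without knockout library 1, and that with IL4 was -0.06 without knockout library 7. Untreated cells of the genotypes also differed in fibroblast and stromal markers, which summed to 881 to 891 CPM in wild type and 109 to 406 CPM in knockout libraries, and the part of this was not tested. Genes of 1 library move together, as the counts of highest and lowest libraries above show, so these 32 signs are not independent.

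Gm2a and Glb1, the beta-galactosidase, had the lowest p in untreated cells. Gm2a was at 474 ± 58.6 CPM in the knockout and 388 ± 66.1 in wild type cells (0.29 ± 0.18, adjusted p = 0.772), and Glb1 at 142 ± 37.9 and 112 ± 17.2 CPM (0.35 ± 0.24, adjusted p = 0.800). With IFN they were Manba (-0.26 ± 0.12, adjusted p = 0.834) and Cd63 (0.36 ± 0.18, adjusted p = 0.864), and with IL4 Gm2a (0.20 ± 0.18) and Lamp1 (0.18 ± 0.17), both with an adjusted p of 1.0. Over the 3 treatments Gm2a (0.25 ± 0.10, adjusted p = 0.401) and Glb1 (0.30 ± 0.14, adjusted p = 0.479) came first. The libraries of the genotypes did not overlap for 3 of 32 genes in untreated cells, Gm2a above and Lamp2 and Cd63 below, where 14.1% of all genes did not overlap. They overlapped for all 32 with IFN and with IL4, where 9.33% and 5.04% of all genes did not. With knockout libraries 3, 6 and 9 left out, an alternative chosen after seeing the data, Glb1 was higher in the knockout over the 3 treatments (0.49, adjusted p = 0.0108), and it was the 1 gene of the list called, beside 6.04% of all genes in that fit.

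**Figure D5:**
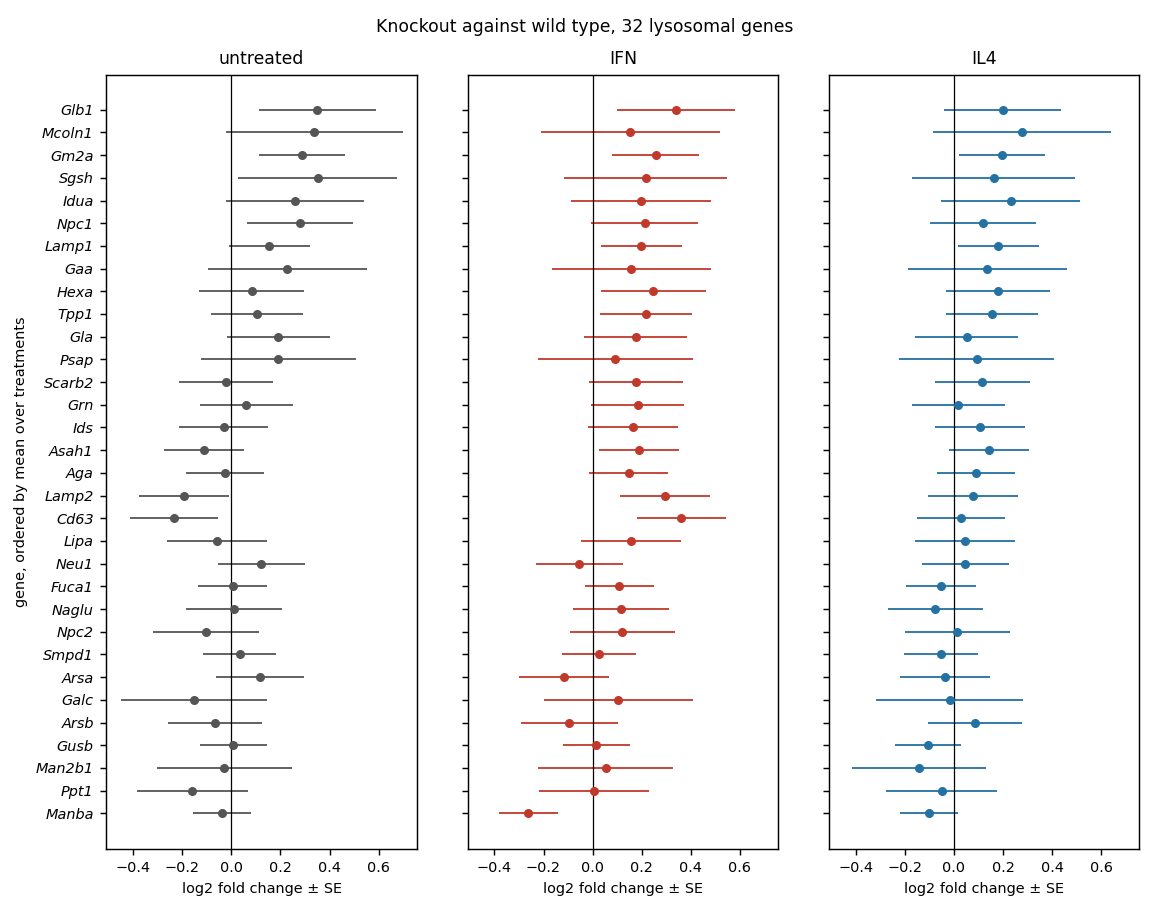
Log2 fold change of knockout against wild type with its SE for the 32 genes, in untreated, IFN-treated and IL4-treated cells, ordered by the mean over treatments. Values lie between -0.26 and 0.36 and none passed the test.

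The responses to cytokine were compared between genotypes with an interaction term. For IFN 0 of 32 genes and 0% of all genes were called, with 1 of the 32 at an unadjusted p under 0.05, and for IL4 0 of 32 and 0% of all genes, with 0 of the 32 at that level. DESeq2 and limma also called 0 of the 32. The largest difference of the IFN responses was that of Cd63 (0.60 ± 0.26, adjusted p = 0.956), whose libraries were lower with IFN in 2 of 3 wild type libraries and higher in all 3 knockout libraries than any untreated library of their genotype. For IL4 the lowest p belonged to Asah1 (0.25 ± 0.23) and Lamp2 (0.27 ± 0.26), both with an adjusted p of 1.0.

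The other lysosomal genes were taken from 5 lists. Of all genes tested, IFN called 18.6% in wild type and 21.6% in knockout cells, and IL4 called 8.49% and 9.48%. The counts below stand beside these shares. Of 12 cathepsins tested, which are the lysosomal proteases, 4 rose and 3 fell with IFN in wild type cells and 5 rose and 2 fell in the knockout. Ctsc rose by 3.42 ± 0.20 and 3.70 ± 0.20 and Ctsh by 2.33 ± 0.22 and 3.08 ± 0.23, and Ctsf fell by 1.95 ± 0.30 and 1.42 ± 0.29. Ctsc went from 282 ± 44.7 to 3030 ± 235 CPM in wild type cells, a larger fitted change than that of Ppt1. With IL4 Ctsz alone of the cathepsins was called (1.10 ± 0.22 and 0.97 ± 0.22). Of 35 other lysosomal enzymes and transporters tested, 13 rose and 3 fell with IFN in wild type cells and 12 rose and 2 fell in the knockout. They included Sumf1, which activates sulfatases (1.11 ± 0.14), the chloride transporter Clcn7 (1.88 ± 0.25) and the amidase Naaa (3.05 ± 0.40) in wild type cells, and Tmem192 (1.17 ± 0.13), Scpep1 (1.41 ± 0.16) and Naaa (3.39 ± 0.40) in the knockout. With IL4 the list held 3 rises in wild type and 4 in knockout cells.

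Subunits of the proton pump that acidifies the lysosome changed with both cytokines. The counts of this and the next lists again stand beside 18.6% and 21.6% of all genes with IFN, and 8.49% and 9.48% with IL4. Of 18 V-ATPase subunits tested, 4 rose with IL4 in each genotype. Atp6v0d2 rose by 2.49 ± 0.37 and 2.55 ± 0.37 and Atp6v0a1 by 1.82 ± 0.23 and 1.59 ± 0.22. Atp6v0d2 is also one of the osteoclast markers above. With IFN 1 subunit rose and 4 fell in wild type cells, and 3 rose and 3 fell in the knockout, with Atp6v0a2 rising (0.98 ± 0.14 and 0.85 ± 0.14) and Atp6v0d2 falling by 2.04 ± 0.38 and 2.00 ± 0.37. Of 15 genes of transcription and nutrient control, 3 rose with IL4 in wild type cells, and 2 rose and 1 fell in the knockout. Tfec, a relative of TFEB, rose by 1.47 ± 0.20 and 1.56 ± 0.20, and Tfeb rose in wild type cells (0.56 ± 0.16, adjusted p = 0.0344). With IFN edgeR called 0 of the 15 in wild type cells, where 2 had an unadjusted p under 0.05 and DESeq2 and limma each called 2, and 3 in the knockout. Of 9 genes of mannose 6-phosphate tagging and sorting, 2 fell with IFN in each genotype, the sorting receptor Sort1 by 3.13 ± 0.40 and 2.94 ± 0.39 and the adaptor Gga2 by 0.40 ± 0.11 and 0.79 ± 0.12. Gnptab and Igf2r, the tagging enzyme and a receptor for the tag, fell with IL4 in the knockout by 0.81 ± 0.22 and 0.64 ± 0.18.

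Of the 32 genes, 16 passed no test in any comparison, which were Lamp1, Scarb2, Mcoln1, Lipa, Gla, Glb1, Hexa, Arsa, Smpd1, Idua, Ids, Naglu, Man2b1, Neu1, Aga and Gaa. They ran from Arsa, the lowest at a median of 24.8 TPM, to Lamp1 at 1472 TPM, so levels did not divide them from the other 16. Their log2 fold changes ran from -0.35 to 0.57 for IFN in wild type cells and from -0.57 to 0.54 for IL4. Lamp1 was at 1620 ± 137 CPM untreated, 1830 ± 180 with IFN and 1880 ± 200 with IL4 in wild type cells. Returning to the promoters, 0 of the 8 genes with CACGTG were called for IFN against untreated cells in either genotype, and 8 of the 21 without it were called in wild type and 9 of 21 in knockout cells. Of all genes tested, 18.6% and 21.6% were called for IFN, and 8 genes are too few to tell 0 calls from these shares. For IL4 in the knockout 1 of 8 (Sgsh) and 1 of 21 (Cd63) were called, beside 9.48% of all genes. Of the pair of genes with TTCNNNGAA, Gm2a rose with IFN and Arsa passed no test.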

How the data were processed

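Poly-A RNA libraries of 18 samples were analysed. Per the submitters' processing notes the authors used Bowtie 0.12.8, RSEM 1.2.3 and the mm10 build. The deposited tables hold expected counts per gene and, per the file, TPM that sum to the same total in each library. Of the expected counts 21.5% were not whole, and they were rounded. Columns of values without a sample numbered 0. A deposited table of median-scaled TPM was not used.

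Counts were filtered with filterByExpr (12514 genes kept), scaled by TMM and tested with edgeR 4.0.16 (R 4.3.3; glmQLFit with robust = TRUE and legacy = FALSE, glmQLFTest) in a single fit of all 18 libraries and 6 groups. The common biological coefficient of variation came to 0.301. The method of Benjamini and Hochberg was applied to all genes of each of the 12 comparisons, and genes under 0.05 after it count as called. SEs are log2 fold changes, without sign, divided by the root of F. CPM use TMM-scaled library sizes. Alternatives were DESeq2 1.42.0, RLE size factors, no filter, limma 3.58.1 on log2(TPM + 1) and log2(TPM + 0.1), fits of the groups compared alone, Y-linked transcripts (above 10 CPM or not) as a covariate, the title number as a block and each library left out. The older quasi-likelihood estimate (legacy = TRUE) and the fit without knockout libraries 3, 6 and 9 were added after seeing the data. The test was also run on simulated data.

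The 32 genes and the other lists were chosen with earlier results of these data known. The text names each gene of the 32 that was called, with every library for at most the 6 of lowest p per comparison, and where none was called the 2 of lowest p. Of the other lists it names at most 3 called genes per comparison. One result of these lists is not reported here. Cap1, Rpl13a and Lyz2 were named outside this rule, as were values of genes that missed the threshold, after their values were seen. Promoter sequences are from RefSeq GRCm38.p6 and gene positions from GENCODE vM21 (GRCm38). The authors' own annotation release is not given in the sources used here.

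Same-numbered libraries of the 2 genotypes were compared through their deviations from the group means over the 9712 genes whose mean log2 CPM exceeded 2. With IL4 the numbers correlated at 0.702, 0.561 and 0.475, and were read as pairs there. The main fit still held no pairing in any treatment, and its results with IL4 are unpaired. The number entered only the alternative with a block, and there for every treatment. The reading as pairs comes from the data, as no label says what a number stands for.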

Additional observations from a re-analysis of the deposited data

How the results depend on the processing

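The alternatives followed the called genes of each comparison and, where none was called, the 2 of lowest p. None of these log2 fold changes changed sign. Other named values were not followed. The median of the 32 genes turned in sign in 27 of the 206 values from other settings, 15 of them for the differences of responses. For IFN in the knockout it was -0.22 on the TPM scale, and for IFN against IL4 there -0.02. Of 378 single-gene values with a library left out, 316 stayed on their side of the threshold, 60 lost and 2 gained a call. In the other settings 432 stayed, 46 lost and 5 gained a call. For IL4 against untreated wild type cells the count of the 32 genes called was 0, and it was 5 with DESeq2, 1 with RLE size factors and 4 with Y-linked transcripts as a covariate, and 0 to 1 with a library left out (1 without untreated library 1 or IL4 library 7). For IL4 against untreated knockout cells it was 2, and it was 1 with no filter, 0 in a fit of the groups compared alone, 1 without knockout libraries 3, 6 and 9, and 0 to 2 with a library left out (0 without untreated library 2 or IL4 library 8). For IFN against IL4 in wild type cells it was 11, and 7 in a fit of the groups compared alone and 6 to 10 with a library left out. In the knockout it was 9, and 7 to 11. For IFN against untreated cells it was 9 in wild type, and 7 to 8 with a library left out, and 10 in the knockout, and 7 to 9. For the mean of knockout against wild type it was 0, and 1 without knockout libraries 3, 6 and 9. All other counts of genotype comparisons and of differences of responses were 0 in each alternative. The cause of these changes was not tested.

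With the number as a replicate block, the count of the 32 genes called stayed at 0 in each genotype comparison and in both differences of responses. The block could not be fitted to comparisons between treatments, as each number belongs to a single treatment. All calls among the 32 in the main test lie in those comparisons, so the block could not bear on them. Of all genes it raised the share called from 0.0799% to 0.767% untreated and from 0.0639% to 0.192% with IFN. With IL4 the share went from 0.0639% to 0.216%, and in the mean over treatments from 0.392% to 1.97%. Same-numbered untreated libraries correlated at 0.746, 0.072 and 0.573 and IFN libraries at 0.371, 0.036 and 0.265, so the numbers were not read as pairs in these treatments. Over all 12514 genes tested the IFN values were 0.296, 0.135 and 0.276 and those of untreated libraries 0.597, 0.042 and 0.358, so for IFN this depends on the genes used.

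With 3 libraries a group, the 16 genes with no call are not thereby shown to be unchanged.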
